A study of Mus musculus with 4 samples.

Results

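The pigment genes described here are 10 genes of the melanosome and of pigment epithelium: Pmel, Mitf, Trpm1, Dct, Tyr, Tyrp1, Mlana, Gpr143, Slc45a2 and Oca2. They were chosen by gene symbol, whatever their level, but with earlier results of these data known. Each matched 1 of the 55426 rows of the expression table. Poly(A) RNA was sequenced from mouse retinal organoids, stem cell aggregates that form early eye tissue in culture, on day 6. All 4 libraries came from the Rx:GFP Mettl3 KO line with Dox-inducible HA-METTL3, so that the controls carry the same knockout and the same inducible copy as the treated samples. METTL3 is the methyltransferase that places the mark N6-methyladenosine on messenger RNA. Adding doxycycline (Dox) should turn on its inducible copy. Both groups were differentiated in GMEM medium with 5% KSR, 1% NEAA, β-ME, sodium pyruvate and 0.1 µM AGN. There were 2 untreated libraries and 2 libraries treated with 2 µg/ml Dox for 6 days. The titles call the groups EV and EV+Dox, a term the labels do not explain, and they do not say whether the line is a single clone. Nothing says that replicates came from separate cultures, so p-values measure the spread between these libraries, which may be technical.

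Melanin is made in melanosomes, lysosome-related organelles of the retinal pigment epithelium and of melanocytes. MITF, a basic helix-loop-helix leucine zipper transcription factor, binds short E-box elements in the promoters of pigment genes and is needed for both cell types. PMEL forms the amyloid fibrils on which melanin is laid down. TYR, TYRP1 and DCT are the related enzymes that make the pigment, with TYR catalysing the first and limiting step. SLC45A2, OCA2 and GPR143 act in melanosome pH, transport and signalling, MLANA is a melanosomal membrane protein, and TRPM1 is a cation channel of melanocytes and of retinal bipolar cells. In the optic vesicle, Mitf is at first expressed widely and is later restricted to the future pigment epithelium. Melanocytes, in contrast, arise from the neural crest.

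Values are FPKM, a fragment count per length of transcript and per depth of the library, so that levels can be compared between genes. Depth is not given in the table. It was fitted from the steps of 1 fragment between low values and came to 31800000 to 35000000 fragments per library. At that fit 85.4% to 85.7% of the low values used fell on whole fragments, against 21.5% to 23.4% by chance. The fit maximised this share, so the share is no separate check. Any scaling between libraries in the deposited values would enter the fitted depth. Across the 13931 tested genes, which are no independent points, the correlation was 0.99 between the untreated replicates, 0.987 between the Dox replicates and 0.96 to 0.966 between groups. Mettl3 itself was at 40.33 and 37.98 FPKM untreated and at 45.2 and 46.37 FPKM with Dox. That difference did not pass the test (log2 fold change 0.22, adjusted p = 0.122 in limma), and gene-level values do not separate the inducible copy from the knocked-out locus or, without strand, from Tox4, which overlaps it on the opposite strand. The eGFP reporter row rose from 0.34 to 347 FPKM, and 10 of 12 neural retina progenitor markers rose, Rax, Six6 and Hmx1 most. These markers were chosen with results on the same libraries known, and 4.44% of all tested genes rose. In bulk RNA, fewer cells of a type and less RNA per cell cannot be told apart.

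Of the 10 pigment genes, 4 were at low levels without Dox and rose steeply with it: Pmel, Trpm1, Mitf and Dct. Tyrp1 was higher with Dox at under 1 FPKM, and the other 5 stayed near 0 in both groups. The summed level of the 10 genes was 3.25 and 3.56 FPKM in the untreated libraries and 82.95 and 83.06 FPKM with Dox. Pmel alone made up 47.3% and 48.1% of that sum with Dox.

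**Figure D1:**
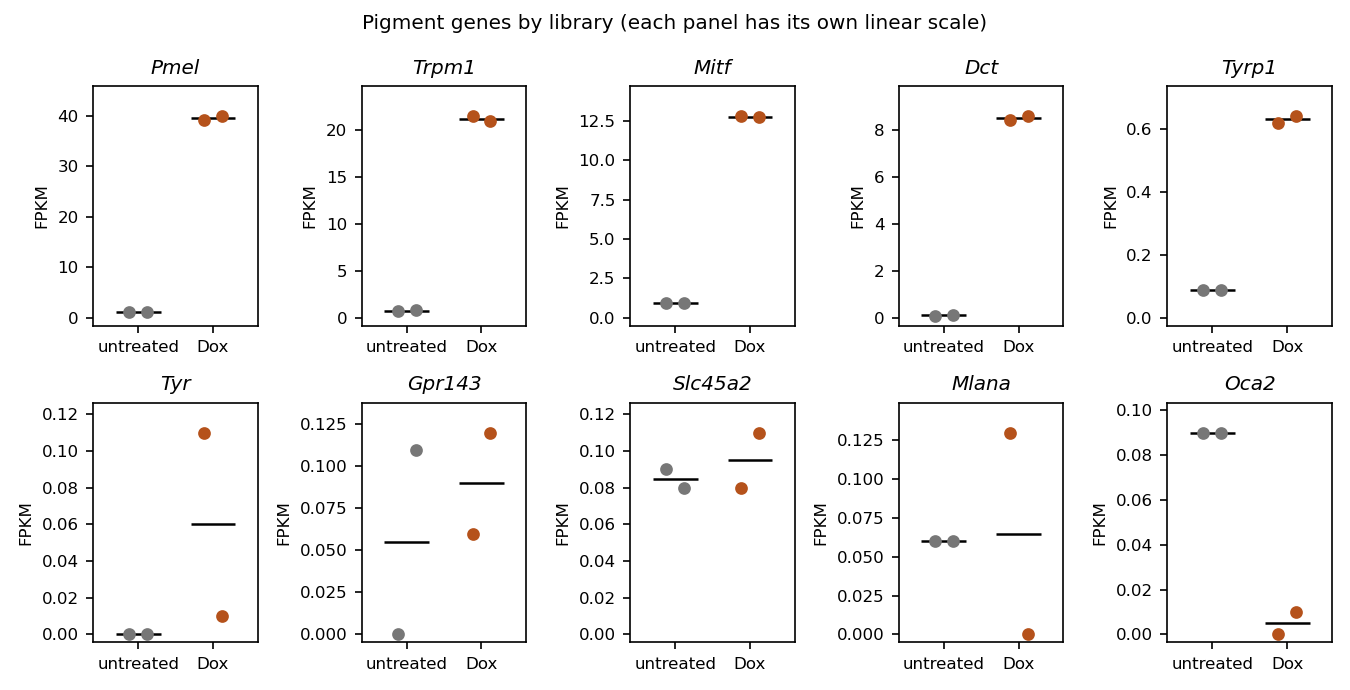
Level of each of the 10 pigment genes in FPKM (vertical axis, linear and different in every panel) in the 2 untreated libraries (grey) and the 2 Dox libraries (orange). Points are libraries and black lines are group means. Pmel, Trpm1, Mitf, Dct and Tyrp1 are higher in both Dox libraries, while the panels of the second row stay at or below 0.13 FPKM.

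Mitf (ENSMUSG00000035158, GRCm38 chr6:97807052-98021349, plus strand), the transcription factor of the group, had levels of 0.93 and 0.97 FPKM without Dox and of 12.78 and 12.71 FPKM with it. Both Dox libraries lay far above both untreated ones, and the replicates of a group nearly coincided. The means were 0.95 ± 0.0283 and 12.7 ± 0.0495 FPKM (SD, n = 2 each), a ratio of 13.4. The log2 fold change was 2.82 (SE 0.102, adjusted p = 1.17e-04 in limma). Fold changes here are on the log2(FPKM + 1) scale, on which low genes appear to change less than they do. GENCODE M21 lists 8 transcripts of Mitf from several start sites. The gene-level values do not tell the forms known from pigment epithelium from the form known from melanocytes.

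Pmel (ENSMUSG00000025359, GRCm38 chr10:128704195-128720238, plus strand), which encodes the fibril protein of the melanosome, stood at 1.2 FPKM in both untreated libraries and at 39.27 and 39.93 FPKM with Dox. It was the most abundant pigment gene in every library. The ratio of means was 33.0 and the log2 fold change 4.21 (SE 0.0861, adjusted p = 4.17e-05 in limma), rank 12 from the top among the 13931 tested genes. With Dox its mean level lay above that of 76.9% of the tested genes. The exons of Pmel overlap those of Cdk2 and Dgka on the opposite strand, and whether counting used strand is not given in the sources used here. Cdk2 was at 45.76 and 47.23 FPKM untreated and at 51.7 and 53.35 FPKM with Dox, and Dgka at 1.41 and 1.58 against 2.12 and 2.26 FPKM. Neither neighbour passed the test, with adjusted p = 0.183 for Cdk2 and 0.162 for Dgka in limma.

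Trpm1 (ENSMUSG00000030523, GRCm38 chr7:64153835-64269775, plus strand), the channel gene, was at 0.70 and 0.82 FPKM untreated and at 21.47 and 20.95 FPKM with Dox. The groups lay far apart, and the replicates of each differed little. The ratio of means was 27.9 and the log2 fold change 3.66 (SE 0.101, adjusted p = 6.96e-05 in limma). The 1 gene that overlaps its exons, Gm44722 on the opposite strand, was listed at 0 in all 4 libraries.

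Dct (ENSMUSG00000022129, GRCm38 chr14:118012790-118052244, minus strand), which encodes dopachrome tautomerase, was at 0.09 and 0.14 FPKM untreated and at 8.43 and 8.58 FPKM with Dox. Its only coding transcript has 2202 nt, at which these values correspond to about 5.7 and 9.6 fragments untreated and to 526 and 552.2 fragments with Dox. The ratio of means was 74.0, the highest of the 10 genes with a value above 0 without Dox, and it rests on that small number of untreated fragments. The log2 fold change was 3.09 (SE 0.117, adjusted p = 1.34e-04 in limma).

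Tyrp1, which encodes a melanosomal enzyme that stabilises tyrosinase, was at 0.09 FPKM in both untreated libraries and at 0.62 and 0.64 FPKM with Dox. The groups did not overlap and the ratio of means was 7.0. If all fragments came from its longest coding transcript, these values are about 7.2 and 7.8 fragments against 48.9 and 52.1. With a mean under 1 FPKM, Tyrp1 was outside the main test, and in the fit without a filter on low values it passed (log2 fold change 0.58, SE 0.0402, adjusted p = 0.0257 in limma).

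Tyr, the gene of the limiting enzyme, was listed at 0 in both untreated libraries and at 0.11 and 0.01 FPKM with Dox. The 0.11 FPKM of Dox replicate 1 corresponds to about 20.3 fragments on the longest coding transcript of Tyr and to about 1.0 on the shortest, so that the evidence behind it cannot be fixed from the table. Of the genes for the transport and signalling proteins of the melanosome, Slc45a2 was at 0.09 and 0.08 FPKM untreated and at 0.08 and 0.11 FPKM with Dox, and its groups overlapped. Gpr143 was listed at 0 and 0.11 FPKM untreated and at 0.06 and 0.12 FPKM with Dox, again with overlap. Mlana stood at 0.06 FPKM in both untreated libraries and at 0.13 and 0 FPKM with Dox, which is at most about 2.8 fragments in any library. Small differences at these levels were not detectable at this depth. A rise like that of Tyrp1, from 0.09 FPKM to 0.62 and 0.64 FPKM, was not present in any of these genes. The groups of Tyr did not overlap, but its second Dox value was only 0.01 FPKM. In the fit without a filter, the adjusted p was 0.567 for Tyr, 0.84 for Slc45a2, 0.744 for Gpr143 and 0.996 for Mlana in limma.

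Oca2, a gene for a melanosomal transporter of pH control, was the only one of the 10 with lower values in both Dox libraries. Both untreated libraries had 0.09 FPKM and the Dox libraries 0 and 0.01 FPKM. This did not pass the test in the fit without a filter (log2 fold change -0.12, adjusted p = 0.11 in limma), and the untreated values are at most about 9.1 fragments per library.

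Read over all 10 genes in the fit without a filter, 5 passed as higher and 0 as lower. In that fit 2.71% of 27532 genes passed in either direction, 1.22% as higher and 1.49% as lower. The 10 genes were chosen with earlier results of these data known, so these shares are no test of the set. In the main fit, which requires a mean of at least 1 FPKM, 4 genes were tested and 4 passed as higher, against 9.31% of all tested genes called in either direction and 4.44% called higher. In 4 of these 4 the groups did not overlap, which held for 53.4% of all tested genes and, with Dox higher, for 26.5%. Trpm1, Mitf and Dct reached that mean through the Dox libraries alone, since both their untreated values were under 1 FPKM, so this count adds nothing to their separate values. The 2 against 2 libraries allow no exact two-sided permutation p below 0.333, which is the value for each of the 5 genes, and the p-values above rest on the variance that limma pools over genes.

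The order of levels differed between the groups. Without Dox it ran from Pmel at 1.2 FPKM to Mitf at 0.95 and Trpm1 at 0.76 FPKM, then fell to Dct at 0.115 FPKM, whose spread reached that of Tyrp1 and Oca2, at 0.09 FPKM each. With Dox the order was Pmel at 39.6, Trpm1 at 21.2, Mitf at 12.7, Dct at 8.5 and Tyrp1 at 0.63 FPKM, each step larger than the spread between replicates. The remaining 5 genes lay between 0.005 and 0.095 FPKM. Oca2, at 0.005 FPKM, was below Slc45a2 and Gpr143 in both libraries, and the others could not be ordered beyond their spread.

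The rising genes also rose by unequal amounts. The level of Pmel was 1.29 and 1.24 times that of Mitf in the untreated libraries and 3.07 and 3.14 times with Dox. Trpm1 went from 0.753 and 0.845 times the level of Mitf to 1.68 and 1.65 times. Dct went from 0.0968 and 0.144 times to 0.66 and 0.675 times. These ratios all use the level of Mitf, so they are not separate results. The untreated ratios of Dct rest on about 5.7 and 9.6 fragments of Dct. The ratio of Pmel to Trpm1 moved less, from 1.71 and 1.46 to 1.83 and 1.91. In each of these ratios both Dox libraries stood above both untreated ones. How often ratios of other genes separate in this way was not computed.

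The ranking by fold change depended on the pseudocount, that is, the FPKM added before the logarithm. With a pseudocount of 0.1, Dct had the highest log2 fold change, 5.33, followed by Pmel (4.93), Trpm1 (4.63) and Mitf (3.61). With a pseudocount of 5, Dct had the lowest, 1.40, below Mitf (1.58), Trpm1 (2.19) and Pmel (2.85). All 4 passed the test in limma at each pseudocount.

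**Figure D2:**
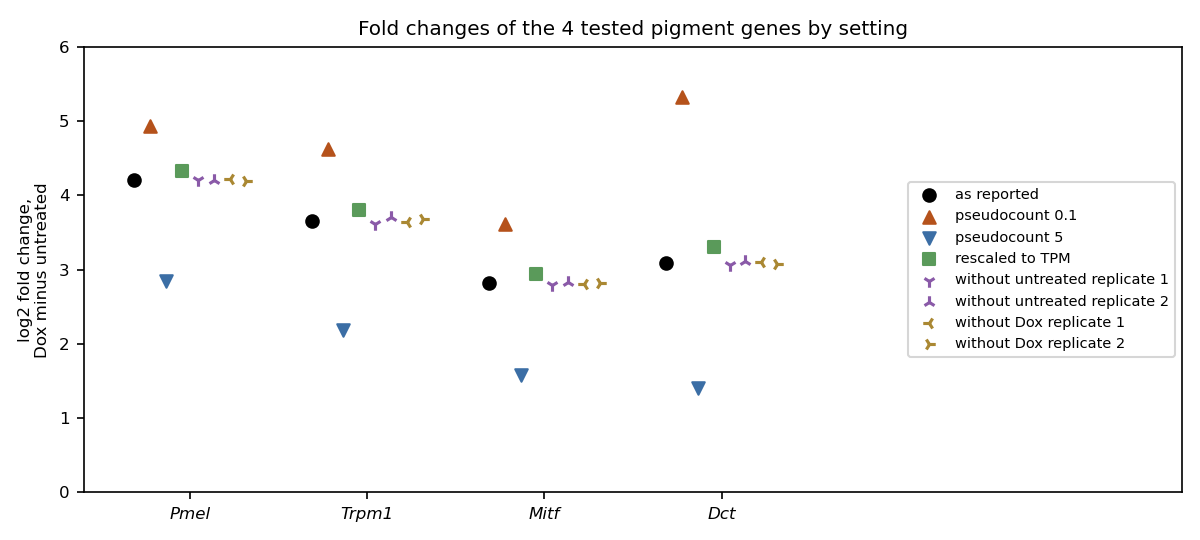
Log2 fold change (vertical axis, Dox minus untreated) of the 4 tested pigment genes as reported, with other pseudocounts, after rescaling to TPM and without each library in turn. Every value is above 0. The pseudocount moves Dct from 1.40 to 5.33, while leaving out any library moves no gene outside 2.80 to 4.22.

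Promoters of the pigment genes were searched for the M-box TCATGTG, an extended E-box known from pigment gene promoters, for the E-boxes CATGTG (contained in every M-box) and CACGTG, and for TAATCC, a letter sequence of the OTX type, on both strands. RefSeq promoter windows of 300 bases on GRCm38.p6, from 250 before to 50 after a start site, were matched for 6 of the 10 genes: Mitf, Trpm1, Dct, Tyr, Tyrp1 and Oca2. Pmel, Mlana, Gpr143 and Slc45a2 were not matched. An M-box stood in a window of 4 genes, Dct, Trpm1, Tyr and Tyrp1, while 4.31% of 27025 genes hold it in at least 1 window and 3.77% of 32851 windows of the same length hold it. The element was picked because it is known from pigment gene promoters, so these shares are no test of enrichment. The matches are shown with 11 bases on either side, 5′ to 3′ on the strand of the gene, with the M-box or its reverse complement in capitals.
Tyr, chr7:87493517-87493545, minus strand: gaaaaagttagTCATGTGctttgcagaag
Tyrp1, chr4:80834155-80834183, plus strand: tggggagggagTCATGTGctgcctagtag
Trpm1, chr7:64153682-64153710, plus strand: ccaaatcctcaTCATGTGcccaccccaaa
Dct, nearer match, chr14:118052380-118052408, minus strand: tgcacttagggTCATGTGctaacaaagag
Dct, farther match, chr14:118052461-118052489, minus strand: cttggctgggaCACATGAgcccaataaag

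Counted from the start site, with negative positions before it, the M-box began at position -22 in Tyr, at -47 in Tyrp1 and, from its first start site, at -142 in Trpm1. In Dct the matches began at -151 and -232, the farther one on the opposite strand. The genes that share this element differed widely in level, since with Dox Trpm1 was at 21.2 FPKM and Tyr at 0.06 FPKM. The 3 windows of Mitf held no M-box and no E-box of either kind. TAATCC stood in a window of Dct, Trpm1, Tyrp1 and Mitf, against 8.14% of genes and 7.06% of windows. Outside an M-box, CATGTG stood in the window of Oca2 and in that of the second start site of Trpm1. It is held by 15.9% of genes and 14.2% of windows. CACGTG stood only in that second window of Trpm1, against 8.09% of genes and 7.15% of windows. A letter match is a description of the sequence, not a bound site.

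**Figure D3:**
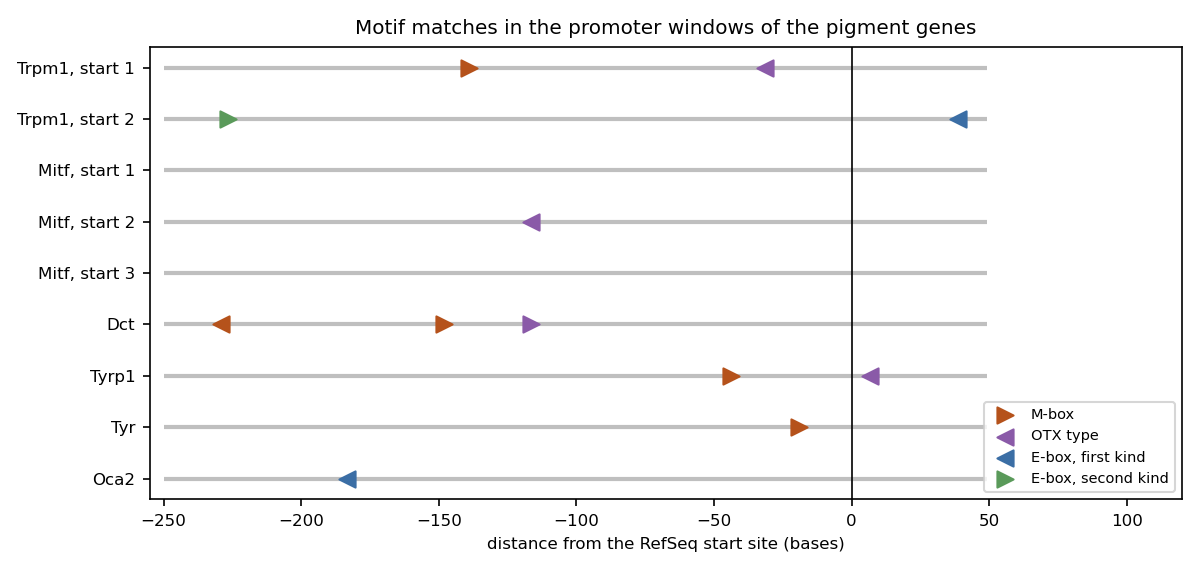
Motif matches in the promoter windows of the 6 pigment genes found in the RefSeq table, by distance in bases from the start site (horizontal axis). Triangles pointing right lie on the strand of the gene and those pointing left on the other, and the first kind of E-box (CATGTG) is drawn only where no M-box holds it. The M-boxes of Tyr, Tyrp1, Trpm1 and Dct begin between positions -232 and -22.

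No gene of the wider melanosome machinery passed the test. A list of 31 genes for melanosome biogenesis and transport, among them subunits of the BLOC and AP-3 sorting complexes and Rab GTPases, had 27 tested genes, of which 0 passed in either direction in limma. At an unadjusted p below 0.05, Hps3, Dtnbp1 and Ap3b1 were higher and Bloc1s2 and Rab38 lower. Log2 fold changes of the 27 ran from -0.43 to 0.35 with a median of 0.014, beside -0.0042 for all tested genes. The count was also 0 in each of the other limma fits, which used other pseudocounts, filters and scalings, the block or 3 libraries. Many of these genes serve lysosomes in all cells, such as Cd63, a membrane protein at 205.28 and 209.46 FPKM untreated and 221.96 and 201.63 FPKM with Dox. Rab38, a GTPase that carries pigment enzymes to the melanosome, was at 6.18 and 7.56 FPKM untreated and 5.02 and 4.64 FPKM with Dox. Of the 4 genes under the filter, Mlph, the adaptor that links melanosomes to myosin, was at 0.04 and 0.02 FPKM untreated and at 0.25 and 0.19 FPKM with Dox. Slc24a5, a melanosomal exchanger gene, was at 0.08 and 0.37 against 0.40 and 0.27 FPKM, and its groups overlapped. The genes of this list were named after their values were seen.

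Among 14 transcription factor genes of the pigment epithelium and its relatives, 13 were tested, 6 passed as higher and 4 as lower, against 4.44% and 4.87% of all tested genes. Of those that passed as higher, Pax2, Vax2 and Crx reached the filter through the Dox libraries alone. For these genes the count adds nothing to their separate values. Lhx2 and Pax6 of this list are also among the neural retina progenitor markers, so the lists are not separate. The median log2 fold change was 0.29. The highest were Pax2, an optic stalk factor (0.22 and 0.20 FPKM to 20.56 and 30.37 FPKM, log2 fold change 4.43), Lhx2, an eye-field factor (3.5), and Vax2, a ventral eye factor (2.91). The lowest were Lef1, a Wnt effector (-1.03), Otx1 (-0.96) and Sox4 (-0.71). Adjusted p-values of these 6 genes ran from 6.96e-05 to 0.00533 in limma. The call of Lef1 was lost in the fit without a filter (adjusted p = 0.0524 in limma). Otx2, which acts with MITF on pigment genes, fell from 173.12 and 172.52 FPKM to 137.05 and 131.35 FPKM. Its log2 fold change of -0.36 passed the main test (adjusted p = 0.0254 in limma) but not the fits without a filter (0.0616), without the trend (0.0579), with the replicate block (0.105) or without any one library (0.0804 to 0.195). Tfec, a close relative of Mitf, was listed at 0 in both untreated libraries and at 0.29 and 0.49 FPKM with Dox, under the filter. The other relatives, Tfe3 and Tfeb, did not pass (adjusted p = 0.257 and 0.457 in limma), nor did Pax6 (0.796). Crx, another gene of the list, rose from 0.57 and 0.50 FPKM to 5.22 and 6.09 FPKM (log2 fold change 2.11, adjusted p = 6.43e-04 in limma). Otx2, Crx and the relatives of Mitf were named after their values were seen. The counts fell to 4 higher and 2 lower without a filter, and to 4 higher and 3 lower without untreated replicate 1, untreated replicate 2 or Dox replicate 2.

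Many genes of the mature pigment epithelium were low. Of 20 such genes 9 were under the filter, among them Rpe65, Lrat and Rgr, which serve the visual cycle and retinal photoreception and did not exceed 0.08 FPKM in any library. Of the 11 tested genes 5 passed as higher and 0 as lower, against 4.44% and 4.87% of all tested genes, with a median log2 fold change of 0.37. Cdh3, a cadherin gene, was at 1.11 and 0.79 FPKM untreated and at 2.93 and 3.77 FPKM with Dox (log2 fold change 1.16, adjusted p = 0.0113 in limma). Stra6, a retinol transport receptor gene, was at 5.21 and 4.18 against 8.21 and 8.98 FPKM (log2 fold change 0.76, adjusted p = 0.0207 in limma). Rdh10 (0.70) and Ezr (0.35), which also passed as higher, were named after their values were seen. In the fit without a filter, and in those that left out untreated replicate 2 or Dox replicate 2, the count of 5 fell to 1, and Cdh3, Stra6, Rdh10 and Ezr did not pass. The count was 3 without untreated replicate 1 and 2 without Dox replicate 1. Ezr also lost its call with the replicate block (adjusted p = 0.0992), after rescaling to TPM (0.0801) and without the trend (0.0679) in limma, where the count was 4. Rlbp1, another visual cycle gene, was at 4.09 and 4.41 FPKM untreated and at 6.45 and 5.18 FPKM with Dox and did not pass (adjusted p = 0.162 in limma).

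Neural crest and melanocyte markers, which cover the other source of pigment cells, went mostly the other way. Of 12 such genes 10 were tested, 7 passed as lower and 1 as higher, against 4.87% and 4.44% of all tested genes, with a median log2 fold change of -1.51. Of the 12, 8 were under 1 FPKM in both Dox libraries and 2 in both untreated ones. Sox10, Tfap2b, Pax3 and most others that passed as lower reached the filter through the untreated libraries alone. For these the count adds nothing to their separate values, and the list was chosen with results on the same libraries known. The count of 7 lower held with the other pseudocounts, without the trend and with the replicate block. It was 6 without a filter and after rescaling to TPM, and also smaller when any 1 library was left out. In those last fits the log2 fold change ran from -3.3 to -2.95 for Sox10, from -2.56 to -2.34 for Tfap2b and from -2.44 to -2.22 for Pax3. With a minimum of 5 FPKM, 3 were tested and 2 passed as lower. Sox10, a crest factor that drives Mitf in melanocytes, fell from 12.79 and 13.35 FPKM to 0.82 and 0.43 FPKM (log2 fold change -3.12, adjusted p = 2.69e-04 in limma). Tfap2b had a log2 fold change of -2.45 (adjusted p = 4.15e-04) and Pax3, another activator of Mitf in melanocytes, of -2.33 (adjusted p = 4.56e-04). Kit, the receptor tyrosine kinase of melanoblasts, was higher at 7.84 and 8.41 FPKM against 4.26 and 3.71 FPKM (log2 fold change 0.87, adjusted p = 0.00747 in limma). The call for Kit was lost without a filter (0.0572) and without untreated replicate 2 (0.0541), Dox replicate 1 (0.0579) or Dox replicate 2 (0.0765). Tfap2a and Snai2 did not pass, at adjusted p = 0.49 and 0.0966. The summed level of the 12 markers was 58.3 and 57.4 FPKM untreated and 22.7 and 22.1 FPKM with Dox, with 8 of the 12 lower and 4 higher in both Dox libraries (26.9% and 26.5% of all tested genes) and none at 0 in all libraries. Mc1r, the melanocyte receptor for melanocortin, did not exceed 0.18 FPKM. The part of the crest markers in the levels of the pigment genes was not tested.

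The 12 neural retina progenitor markers summed to 380 and 343 FPKM untreated and to 1350 and 1580 FPKM with Dox, and 11 of 12 were higher in both Dox libraries, against 26.5% of all tested genes. Of the 12, 3 were under 1 FPKM in both untreated libraries, Six6 and Hmx1 among them, and reached the filter through the Dox libraries alone. Pax6 and Ccnd1 did not pass the test. The 10 pigment epithelium markers, of which 5 are pigment genes described above, summed to 180 FPKM in each untreated library and to 206 and 199 FPKM with Dox. Otx2 made up most of that sum, and without it the 9 others summed to 6.55 and 7.20 FPKM untreated and to 68.7 and 67.5 FPKM with Dox. The 4 that are neither Otx2 nor pigment genes, Rpe65, Rlbp1, Best1 and Ttr, summed to 4.24 and 4.80 FPKM untreated and to 7.49 and 5.6 FPKM with Dox. The part of the retina markers in the levels of the pigment genes was not tested.

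**Figure D4:**
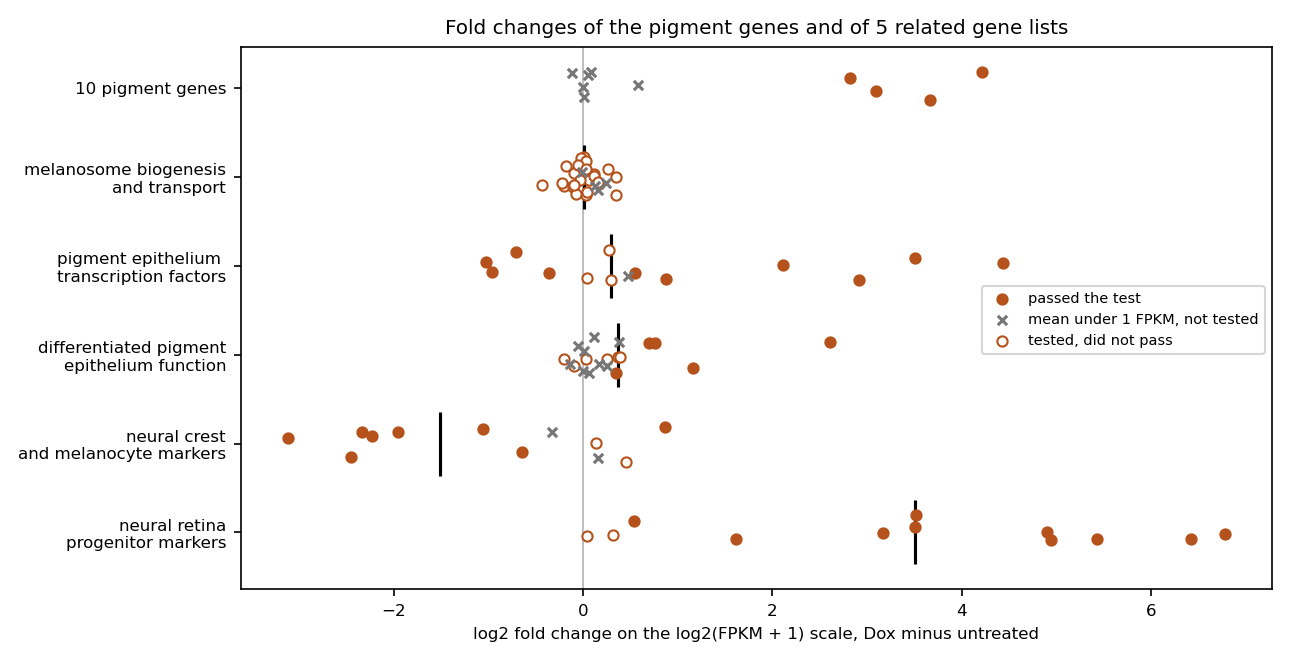
Log2 fold change on the log2(FPKM + 1) scale (horizontal axis, Dox minus untreated) of every gene of the 10 pigment genes and of 5 lists. Filled points passed the test in limma, open points did not, crosses had a mean under 1 FPKM and were not tested, and black bars are the medians of the tested genes of the 5 lists. Melanosome biogenesis genes lie around 0, crest markers mostly below it and neural retina markers above it.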

How the data were processed

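The authors deposited 1 table of FPKM values, with 1 column per library and 2 decimals. STAR, Cuffdiff and the build mm10 appear in the submitters' processing notes, without versions or roles. The annotation release and the strand setting are not given in the sources used here. GENCODE M21 (GRCm38) gave coordinates, transcripts and overlapping exons, and promoter windows and miRNA sequences came from RefSeq (GRCm38.p6).

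On log2(FPKM + 1), limma 3.58.1 (R 4.3.3) tested the 13931 genes whose mean reached 1 FPKM with eBayes (a trend, all 4 libraries, no covariate), two-sided, with Benjamini-Hochberg adjustment over all tested genes and a threshold of 0.05. Only the limma step was run on simulated data. The values were drawn as independent normal noise with the variances of the same fit, so its assumptions were not checked. Alternatives were other pseudocounts and filters, rescaling to TPM, no trend, the replicate number as a block and each library left out.

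Depth was fitted in Python 3.11.15 over values up to 0.5 FPKM in genes with 1 transcript, 450 to 1200 nt long, less an offset of 240 nt. Fragment numbers derived from it are approximate.

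The members and lists were chosen with earlier results of these data known. Named genes are the 10 members and, from each list, at most 3 passing genes with the highest and 3 with the lowest fold change. Others are marked in the text, and 1 gene is not reported here.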

Additional observations from a re-analysis of the deposited data

How the results depend on the processing

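The calls of Pmel, Trpm1 and Mitf held in 11 of 11 other fits and that of Dct in the 10 that tested it, with adjusted p-values in limma of at most 0.00786, 0.0101, 0.0116 and 0.012. With a minimum of 5 FPKM Dct was no longer tested. Of the 16 genes taken from the lists by the naming rule, 0 reversed their direction in these fits and 4 lost their call in at least 1. The number of all genes called was less stable than the members' calls. It was 1297 (619 higher, 678 lower), and 745 (336 and 409) without a filter, 821 (408 and 413) with a minimum of 5 FPKM, and 593 to 697 (262 to 320 higher, 331 to 377 lower) when 1 library was left out. In those fits the lone library is assumed to vary like the other group. The count was 653 without untreated replicate 1, 697 without untreated replicate 2, 651 without Dox replicate 1 and 593 without Dox replicate 2. The cause of the changes was not tested.

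A replicate block, by number, gave 1134 calls (532 higher, 602 lower), among them the 4 pigment genes. The deviations of same-numbered libraries correlated at -0.0435 over the tested genes, which gives no sign of pairing. At 31800000 to 35000000 fragments, 3 fragments on the longest coding transcript correspond to 0.0157 FPKM for Tyr and 0.137 FPKM for Mlana, and differences near these values cannot be seen.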

Other observations

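Trpm1 hosts a microRNA gene, Mir211, in an intron on its own strand (GRCm38 chr7:64205806-64205911), and its relative Trpm3 hosts Mir204 (chr19:22750605-22750672) in the same way. The mature 5p forms, both known from pigment epithelium, are shown because they share their seed, bases 2 to 8, in capitals, and differ at 1 of 22 bases.
mmu-miR-211-5p: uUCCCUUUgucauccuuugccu
mmu-miR-204-5p: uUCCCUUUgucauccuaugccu

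Both host genes were higher with Dox. Trpm1 went from 0.70 and 0.82 FPKM to 21.47 and 20.95 FPKM, and Trpm3 from 0.50 and 0.53 FPKM to 1.67 and 2.82 FPKM. The log2 fold change of Trpm3 was 1.08 (SE 0.201, adjusted p = 0.0308 in limma). Its call was lost without a filter (0.132) and without untreated replicate 1 (0.118), untreated replicate 2 (0.114) or Dox replicate 2 (0.0866), and exons of Trpm3 overlap 2 genes on the opposite strand. The rows of Mir211 and Mir204 were listed at 0 in all 4 libraries, and poly(A) libraries do not measure mature microRNAs. Trpm3 was chosen after other results had been seen.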
